A study of Gallus gallus with 8 samples.

Results

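Genes of the protein synthesis machinery were followed in the hypothalamus of growing chickens: the translation initiation factors (eIF genes), the translation elongation factors (eEF genes) and the aminoacyl-tRNA synthetases. They were chosen by symbol. A spot was taken when its gene symbol in the platform annotation starts with EIF or EEF, or is EPRS or a single letter followed by ARS, ARS1 or ARS2. This gave 130 of the 10478 named spots, which carry 117 of the array's 17708 cDNA clones and stand for 63 of 6428 named genes. Where a gene has several clones, they are lettered here by falling brightness (EPRS clone a is the brightest EPRS clone).

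The birds came from chicken lines named for fatness (the fat line, FL) and leanness (the lean line, LL), at 4 ages. The 8 groups were FL and LL at week 1, FL and LL at week 3, FL and LL at week 5, and FL and LL at week 7. The series design gives 4 biological replicates per group, so 32 arrays were compared. Every hypothalamic RNA was labelled with Cy3 and hybridised on a DEL-MAR 14K spotted cDNA array against the same Cy5-labelled pool of all the samples. All birds were on a standard broiler growth protocol, the labels name no treatment and do not state the birds' sex. Values below are log2 ratios of sample over pool (levels) or log2 differences between group means of such ratios. A level of 0 means equal Cy3 and Cy5 signal after normalization. No dyes were swapped, so a clone's distance from 0 can hold a dye difference. Only differences between groups are read.

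Initiation factors bring the ribosome, the initiator tRNA and the mRNA together at the start codon. Elongation factors then deliver charged tRNAs and move the ribosome along the mRNA, and each aminoacyl-tRNA synthetase loads a tRNA with its amino acid. In neurons, translation is regulated close to the synapse as well as in the cell body, and its main control points are eIF2, its exchange factor eIF2B, and the cap-binding factor eIF4E.

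The array signal limited what could be read. The median Cy3 spot signal was 2.57 to 8.45 times the local background, and 14.6% to 67.7% of clones were above the empty spots of their array. Of the 117 translation clones, 62 of 39 genes could be tested (53.0%, against 44.7% of all 17708 clones). A tested clone was above background on at least 3 of 4 arrays of 1 group, with 2 or more values in every group. Only 2 of these 62, EPRS clone b and GARS clone a, passed through a single group. Their median log2 brightness was 11.59, against 12.22 for all 7917 clones tested. The labels name the tissue as hypothalamus. Of 18 listed hypothalamic genes, 3 were on the array and 2 were tested. Both POMC clones (27 and 30 of 32 arrays) and TAC1 (32 of 32) were above background, and NPY was above it on 7 of 32 arrays. Of 9 listed anterior pituitary genes, 7 were on the array and 6 were tested. These markers alone therefore do not establish the tissue. In bulk tissue, fewer cells of a type and less RNA per cell cannot be told apart.

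The 24 translation genes with no tested clone were spread unevenly over the families. Neither eIF2 kinase on the array (EIF2AK3 and EIF2AK4) could be tested, nor could EIF5A2, EIF6, the cap-binding protein EIF4E itself, its repressors EIF4EBP1 and EIF4EBP2, or EEF2K, the kinase that inhibits eEF2. Of the 14 cytosolic synthetase genes, QARS, RARS, MARS, YARS, TARS, WARS and DARS were also without a test, as were IARS2, MARS2, NARS2 and RARS2 of the 6 mitochondrial ones. The others without a test were EIF4G3, EIF4H, EIF3M, EIF5B and EEF1E1. Not all of these genes were dim. NARS2 was above background on all 13 arrays that measured it but lacked values on the others. EIF4H, WARS and EIF5A2 had no usable value on any array. The subunits of eIF3 had the fullest cover, with 15 of 18 clones tested.

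Between weeks 1 and 7, 2 of the 62 clones fell and 0 rose, averaged over both lines (limma, Benjamini-Hochberg over all 7917 clones, adjusted p under 0.05). They were EPRS clone a and EIF4A2 clone c. Among all clones tested, 2.58% passed in this comparison, 1.57% higher and 1.01% lower, so the 2 calls stand close to the background share. At an unadjusted p under 0.05 there were 7 members, and 19% of all clones. The 62 differences ran from -0.73 to 0.55, with 39 clones above 0, 23 below 0 and a median of 0.053, against a median of -0.019 over all clones, of which 54.7% were below 0. The lowest, GARS clone a, was tested through FL at week 1 alone, where it was high, so nothing is read from it. The next lowest was -0.57 (EIF4A2 clone c). The standard error of such a difference had a median of 0.117 over the 62 clones.

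**Figure D1:**
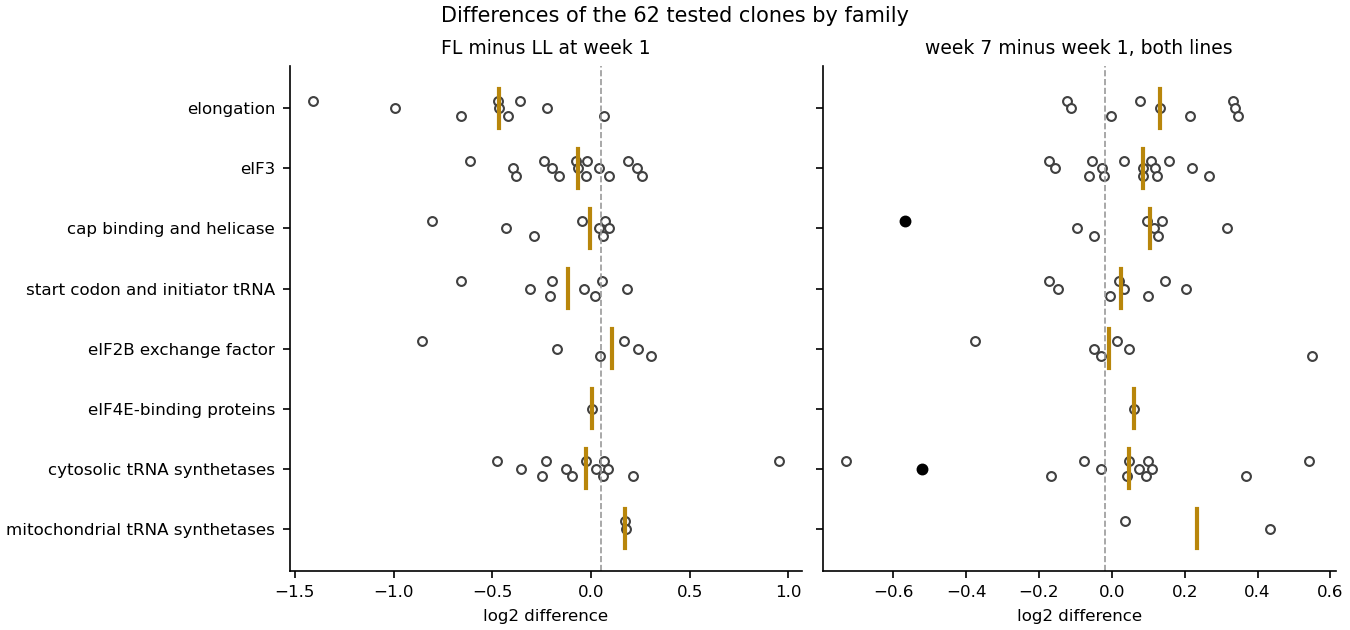
Log2 differences of the 62 tested clones by family (rows), FL minus LL at week 1 on the left and week 7 minus week 1 over both lines on the right. Each circle is a clone, filled where the adjusted p is under 0.05, the thick bar is the family median and the dashed line the median of all 7917 clones. The 2 filled circles are EIF4A2 clone c and EPRS clone a, and the elongation median of -0.47 lies to the left of the others at week 1.

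EPRS encodes the enzyme that loads both glutamate and proline onto their tRNAs. In FL birds, EPRS clone a had levels of -0.46, -0.26, -0.24 and -0.40 on the arrays of week 7, against 0.14, 0.32, 0.40 and 0.22 at week 1. In LL birds it had -0.14, 0.0070, -0.38 and -0.21 at week 7, against 0.0039, 0.16, 0.49 and 0.34 at week 1. All FL arrays of week 7 lay below all FL arrays of week 1, and the LL arrays of both weeks touched at a single array each. No tested translation clone had separate arrays of these weeks in both lines. How many of all clones separate in both lines, or within FL alone, is not given, so nothing is read from this count. Such statements on the EPRS and EIF4A2 clones therefore only describe the printed values.

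EPRS clone a fell by 0.52 ± 0.080 (SE) between weeks 1 and 7, a 1.44-fold fall (limma adjusted p = 0.000756), and all 8 arrays of week 7 lay below their line's mean of week 1. The comparisons within a line use the same arrays as that over both. In FL alone it fell by 0.61 ± 0.11 (limma adjusted p = 0.00597, where 1.09% of all clones passed and 14.6% had an unadjusted p under 0.05), and in LL alone the difference was -0.43 ± 0.11 (limma adjusted p = 0.275, where 0.0758% of all clones passed and 9.32% had an unadjusted p under 0.05). The FL and LL changes differed by -0.18 ± 0.16 (limma adjusted p = 0.949, a test added after the data were seen). At week 3 the level of EPRS clone a averaged -0.21 ± 0.13 in FL and -0.073 ± 0.13 in LL (SD, n = 4 each). Week 3 lay 0.40 ± 0.080 below week 1 (limma adjusted p = 0.0232, where 0.139% of all clones passed and 12.2% had an unadjusted p under 0.05). Means at the later ages were -0.32 ± 0.24 in FL and -0.25 ± 0.11 in LL at week 5 and -0.34 ± 0.10 in FL and -0.18 ± 0.16 in LL at week 7.

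The clone was dim at week 7, above all in FL. It was above background on 3 of 4 arrays in either line at week 1, on 0 of 4 FL arrays and 2 of 4 LL arrays at week 7. At week 3 it was above background on 3 FL and 2 LL arrays, and at week 5 on 2 FL and 3 LL arrays. The mean Cy3 signal in FL was 1.88-fold higher at week 1 than at week 7 (mean log2 Cy3 of 10.93 at week 7, against 11.83 at week 1). This is a ratio of the 2 means and not a lower bound. It rests on the Cy3 channel alone, since no dyes were swapped. Without any 1 of the 32 arrays the difference stayed between -0.56 and -0.48, with limma adjusted p between 0.000117 and 0.00344. The call for week 3 against week 1 was lost in 7 of the 32 fits without 1 array, with adjusted p up to 0.099. With only the arrays compared, the week 3 call and the call in FL alone were lost (limma adjusted p = 0.0738 and 0.227), and that over both lines was kept. A stricter filter on dim clones left EPRS clone a out of the test.

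The other EPRS clones were not called lower at week 7. EPRS clone b had 0.37, 0.44, 2.85 and 0.43 on the FL arrays of week 7, against -0.11, 0.0096, 0.048 and -0.28 at week 1. In LL it had 0.37, 0.62, 0.26 and 0.22 at week 7, against 0.23, 0.36, 0.20 and 0.77 at week 1. The FL arrays of the 2 weeks did not overlap, the LL arrays did, and FL week 7 replicate 3 stood far above every other array. The week 7 minus week 1 difference of EPRS clone b was 1.11 ± 0.32 in FL (limma adjusted p = 0.0815). Without FL week 7 replicate 3 it was 0.50, with a smaller spread and a limma adjusted p of 0.0431, where 5.22% of all clones passed (1.09% with all arrays). EPRS clone b was above background on only 2 of 4 FL arrays at week 1 and 2 of 4 at week 7.

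EPRS clone c had a mean level above 0 in every group, which is not read as more transcript than in the pool. Its means at week 1 were 0.64 ± 0.19 in FL and 0.66 ± 0.14 in LL. At week 7 they were 0.81 ± 0.37 in FL and 0.67 ± 0.38 in LL (SD, n = 4 each). The week 7 minus week 1 difference of EPRS clone c was 0.093 ± 0.15 (limma adjusted p = 0.779). Pairs of EPRS clones correlated between -0.20 and 0.094 over the arrays. Which transcript each printed cDNA detects was not tested here, so the fall is reported for clone a only.

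EIF4A2 encodes an RNA helicase of the cap-binding complex, which unwinds the start of the mRNA. EIF4A2 clone c had 0.14, 0.28, 0.13 and 0.21 on the FL arrays of week 7, against 0.48, 1.00, 1.04 and 0.43 at week 1. In LL it had 0.16, 0.51, 0.18 and -0.055 at week 7, against 0.97, 0.12, 0.85 and 1.20 at week 1. The FL groups did not overlap (no share over all clones is given), and in LL only replicate 2 of week 1 lay within the range of week 7.

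EIF4A2 clone c fell by 0.57 ± 0.14 (SE), a 1.48-fold fall (limma adjusted p = 0.0322), and all 8 arrays of week 7 lay below their line's mean of week 1. Within a line the difference was -0.55 ± 0.20 in FL and -0.59 ± 0.20 in LL, and neither passed alone (limma adjusted p = 0.197 and 0.434). The changes in FL and LL differed by 0.040 ± 0.29 (limma adjusted p = 0.996, added after the data were seen). This call was less secure than that of EPRS clone a: it was lost in 10 of the 32 fits without 1 array, with differences from -0.68 to -0.50 and limma adjusted p up to 0.088. It was also lost with median centring, with spread scaled between arrays and with only the arrays compared (limma adjusted p = 0.0605, 0.0655 and 0.11). The clone was above background on 19 of 32 arrays.

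EIF4A2 clone a, the bright clone of the same gene and above background on all 32 arrays, did not share the fall. Its FL levels were 0.15, 0.22, 0.057 and 0.0071 at week 7, against -0.27, -0.34, -0.14 and -0.069 at week 1. Its LL levels were 0.055, -0.051, 0.23 and -0.22 at week 7, against 0.041, -0.13, 0.0080 and 0.42 at week 1. The FL arrays of the 2 weeks did not overlap and were higher at week 7 (no share over all clones is given), and the LL arrays overlapped. Its difference over both lines was 0.12 ± 0.10 (limma adjusted p = 0.567). The 2 clones correlated at 0.131 over the arrays.

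**Figure D2:**
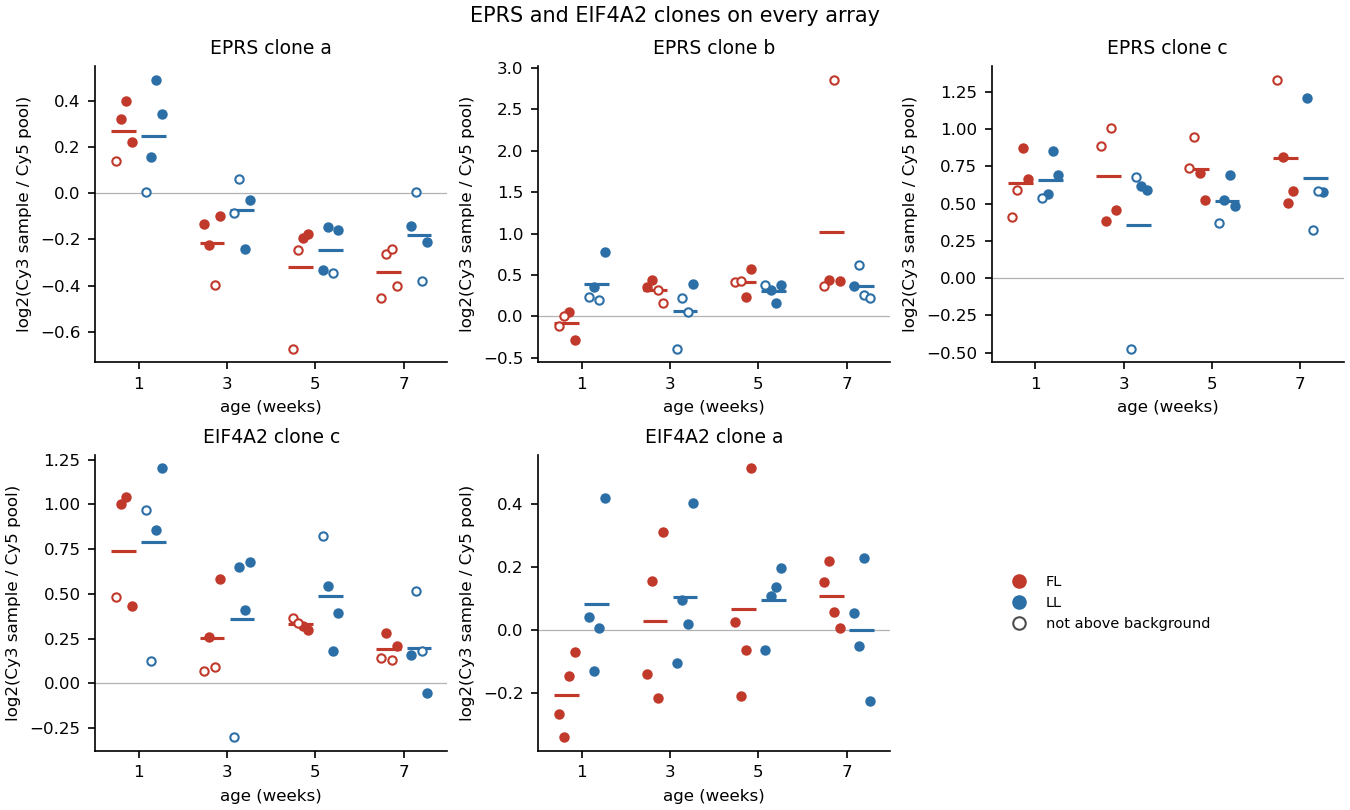
Levels of 3 EPRS clones and 2 EIF4A2 clones as log2 ratios of sample over pool (vertical axis) on every array at weeks 1, 3, 5 and 7, FL left of LL. Points are arrays (open where the clone was not above background) and bars are means of 4. EPRS clone a and EIF4A2 clone c lie lower at week 7 than at week 1, and the point at 2.85 for EPRS clone b is FL week 7 replicate 3.

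Some cell type markers also differed with age beside these changes. Of the red cell list, 2 of 9 genes were on the array. Their mean log2 ratio was -0.38 to -0.0050 on the FL arrays of week 7, against 0.39 to 1.19 at week 1, and in LL it was -0.42 to -0.089 at week 7, against 0.34 to 0.67 at week 1. Of the dividing cell list, 6 of 10 genes were tested and 1 clone fell (median difference -0.19). Of 10 astrocyte clones 2 rose (median 0.23), and of 7 oligodendrocyte clones 1 rose (median 0.18). Of 3 hypothalamus clones 1 rose (median 0.095), as did 1 of 6 clones of microglia and blood leukocytes (median 0.017). Of 7 clones of the neuron list 0 passed in limma (median 0.077). The same held for 7 anterior pituitary clones (median 0.019) and 5 clones of vessels and choroid plexus (median 0.00032). Among all clones tested, 1.57% rose and 1.01% fell. The part of these cells in the fall of EPRS clone a and EIF4A2 clone c was not tested.

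At week 1, 0 of the 62 translation clones passed between FL and LL after adjustment, where 0.253% of all clones did (limma, 0.0126% higher and 0.24% lower in FL). At an unadjusted p under 0.05, 11 clones were lower in FL and 0 were higher, against 9.75% lower and 7.87% higher of all 7917 clones (17.6% in both directions). With no overlap between the FL and LL arrays that measured them (3 or 4 per group), 9 clones lay lower in FL and 1 higher, where 6.86% and 5.72% of all clones did. The 1 higher was GARS clone a, tested through FL at week 1 alone, so nothing is read from it. The median of the 62 differences was -0.057, against 0.050 over all clones.

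The elongation family stood lowest. Of its 9 clones, 8 were below 0 in FL minus LL at week 1, with a median of -0.47, against 41.0% of all clones below 0 and the median of 0.050. Of these 9, 5 had an unadjusted p under 0.05 and 0 passed after adjustment in limma. The family was named from the gene symbols, and this description carries no test of the family. Its 9 clones stand for 6 genes, and 2 of them are of EEF2KMT, which methylates eEF2 and is not itself an elongation factor. The tested EEF1A1 and EEF1A2 clones correlated at 0.895 to 0.919 over the arrays, so the 9 values are not independent.

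EEF1A1 and EEF1A2 encode the 2 forms of eEF1A, which delivers charged tRNAs to the ribosome. In mammals EEF1A2 is the form of mature neurons and muscle. EEF1A2 clone b had -0.44, -0.90, -0.55 and -1.04 on the FL arrays of week 1, against 0.21, 0.14, 0.14 and 0.54 on the LL arrays. EEF1A1 clone a had -0.74, -0.86 and -1.63 on the 3 FL arrays that measured it, against 0.56, -0.091, -0.060 and 0.92 on the LL arrays. For both clones, no FL array reached the lowest LL array.

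The FL minus LL difference of EEF1A2 clone b was -0.99 ± 0.26 (SE), a 1.99-fold difference (limma adjusted p = 0.0795). For EEF1A1 clone a the difference was -1.41 ± 0.42 (limma adjusted p = 0.113), with only 1 FL array and 3 LL arrays above background. EEF1A2 clone a, printed in 9 spots and above background on all 32 arrays, had a smaller difference of -0.42 ± 0.17 (limma adjusted p = 0.205). Taken spot by spot, all 9 spots were below 0, from -0.24 to -0.70. The cDNAs of the 2 eEF1A genes are close in sequence, and how far the clones tell them apart was not tested. EEF1A2 clone a and EEF1A1 clone a correlated at 0.919 over 31 arrays, as a description.

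EEF2 moves the ribosome by a codon once the peptide bond is made. EEF2 clone a had -0.17, -0.31, -0.17 and -0.55 on the FL arrays of week 1, against 0.070, 0.11, 0.25 and 0.22 on the LL arrays. The groups did not overlap, and the difference was -0.47 ± 0.15 (limma adjusted p = 0.134). EEF1B2 and EEF1D encode subunits that recharge eEF1A with GTP. The differences were -0.36 ± 0.16 for EEF1B2 clone a, -0.66 ± 0.38 for EEF1B2 clone b and -0.47 ± 0.30 for EEF1D, and for each of these the FL and LL arrays overlapped (limma adjusted p from 0.245 to 0.405). EEF2KMT, which methylates eEF2, had differences of -0.22 ± 0.13 for clone a and 0.065 ± 0.15 for clone b.

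**Figure D3:**
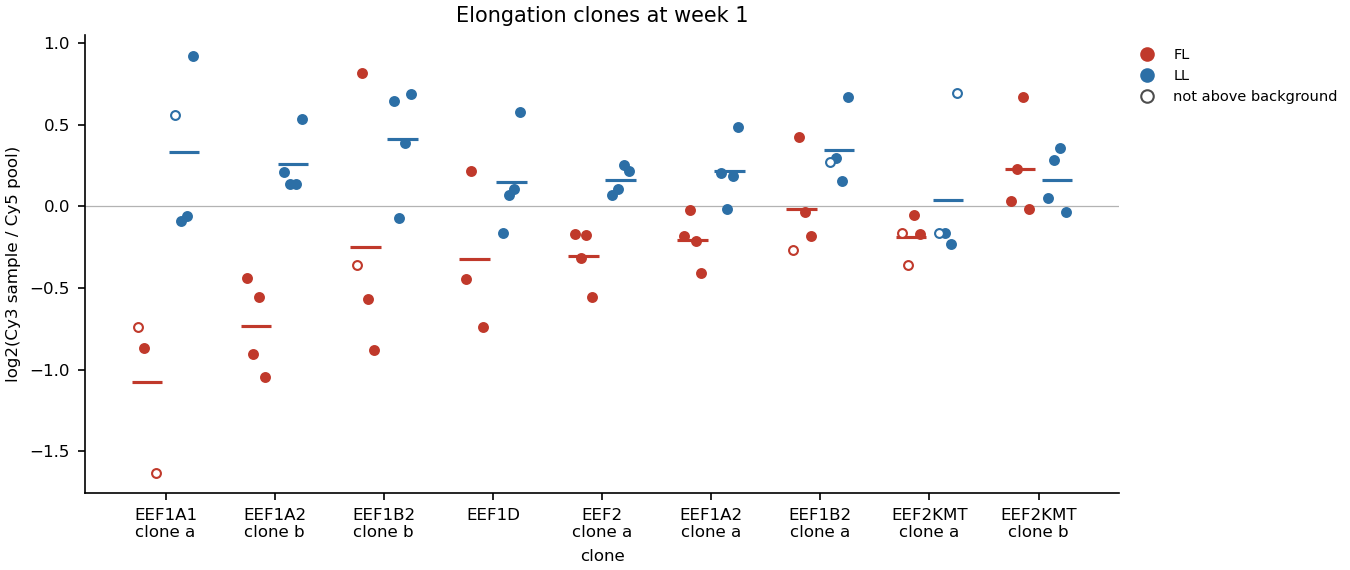
Levels of the 9 elongation clones at week 1 as log2 ratios of sample over pool, FL left of LL. Points are arrays (open where not above background) and bars are means of the arrays measured, 3 or 4 per group. For EEF1A1 clone a, EEF1A2 clones a and b and EEF2 clone a, all FL arrays lie below all LL arrays.

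Other members were low in FL at week 1 too. EIF3E, a subunit of eIF3, the complex that holds the small ribosomal subunit ready, had -0.091, 0.16, -0.13 and -0.37 on the FL arrays, against 0.36, 0.35, 0.54 and 0.78 on the LL arrays, with no overlap and a difference of -0.61 ± 0.17 (limma adjusted p = 0.099). It was above background on 1 FL array and 3 LL arrays. EIF3F, another eIF3 subunit, differed by -0.24 ± 0.087 (limma adjusted p = 0.167).

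EIF5 encodes the factor that makes eIF2 hydrolyse its GTP at the start codon. EIF5 clone b had -0.56, 0.093, -0.13 and -0.83 on the FL arrays, against 0.24, 0.27, 0.062 and 0.65 on the LL arrays, and a single FL array reached the LL range. The EIF5 clones a, b and c all lay below 0, at -0.20, -0.66 and -0.31 (limma adjusted p = 0.349, 0.156 and 0.316).

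EIF4G2 encodes a relative of the scaffold eIF4G that does not bind eIF4E. EIF4G2 clone c had -0.061, -0.024, 0.36 and -1.01 on the FL arrays, against 0.70, 0.45, 0.54 and 0.80 on the LL arrays. The groups did not overlap, and the difference was -0.81 ± 0.29 (limma adjusted p = 0.165). EIF4G2 clone b differed by -0.43 ± 0.23.

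EIF2B5 encodes the catalytic subunit of eIF2B, which reloads eIF2 with GTP. EIF2B5 clone b had 0.015, -0.37, -0.86 and -0.86 on the FL arrays, against 0.54, 0.40, 0.032 and 0.37 on the LL arrays, a difference of -0.86 ± 0.32 (limma adjusted p = 0.174). Its mean log2 Cy3 at week 1 was 11.16 in FL, against 10.85 over both lines, which is opposite in direction to its ratio. The brighter EIF2B5 clone a differed by 0.043 ± 0.077, and the 2 clones correlated at -0.289. LARS clone a, for the leucyl-tRNA synthetase, differed by -0.35 ± 0.15 (limma adjusted p = 0.236), and LARS clone c by -0.099 ± 0.17. GARS clone a, for the glycyl-tRNA synthetase, had all FL arrays above all LL arrays, with 3 measured arrays in each group (0.95 ± 0.55, limma adjusted p = 0.369). It passed the brightness filter through FL at week 1 alone, so its high level there is part of how it came to be tested.

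Several of these clones ran closely together over the arrays. The following pairs were taken from the strongest positive pairs and include the arrays of week 1. Over the 32 arrays, EIF3E correlated with EIF4G2 clone c at 0.895, EEF2 clone a with EEF1A2 clone b at 0.864, EEF1A2 clone a with LARS clone a at 0.891, and EIF5 clone b with EEF1A2 clone b at 0.839. Strong negative pairs were found too, such as EIF3I clone a with EIF3J clone a (-0.83) and EIF4G2 clone b with EIF2B4 (-0.801). Over all 1863 pairs of translation clones of different genes the median correlation was 0.026 (-0.83 to 0.919). The points share the pool and the arrays, so these values are descriptions. The mean level of the 9 elongation clones was lowest on FL week 1 replicate 4 (-0.62), LL week 3 replicate 1 (-0.56) and FL week 7 replicate 3 (-0.53). Elongation clones were therefore low on single arrays of other groups as well.

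**Figure D4:**
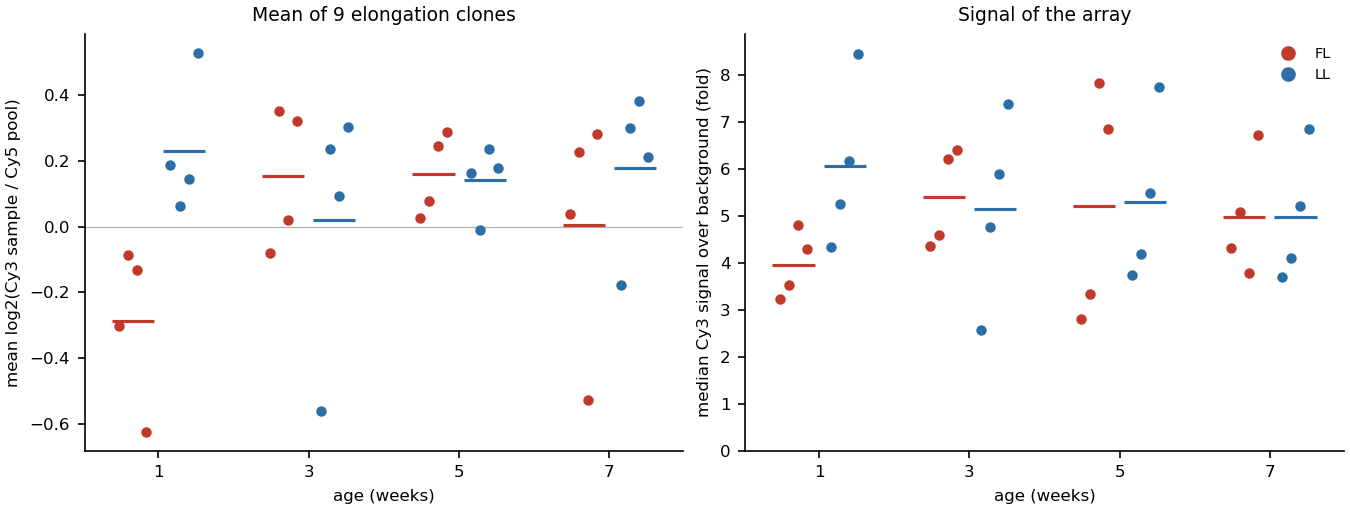
Mean log2 ratio of the 9 elongation clones (left) and median Cy3 signal over local background of the array (right) on every array at weeks 1, 3, 5 and 7, FL left of LL. Points are arrays and bars are means of 4. All 4 FL arrays of week 1 lie below the 4 LL arrays in the left panel, and LL week 3 replicate 1 has the lowest signal, 2.57, in the right panel.

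The array signal and the marker lists were also compared between the lines at week 1. The median Cy3 signal over background was 3.96 ± 0.72 in FL and 6.05 ± 1.77 in LL (SD, n = 4 each). With the signal as a covariate, 8 of 9 elongation clones were below 0 and their median was -0.29 (0.028 over all clones). In that fit 0 of all 7917 clones passed in limma between the lines at week 1. Signal differed between the lines at week 1, so the fit cannot separate signal from line. For the neuron list, 7 clones of 6 of 9 genes, the mean log2 ratio was -0.47 to -0.22 on the FL arrays of week 1, against -0.035 to 0.074 on the LL arrays, and the median difference was -0.59 with 0 clones called. The median difference was -0.33 for 7 oligodendrocyte clones and -0.15 for 10 astrocyte clones, also with 0 called. The other lists had median differences above 0, from 0.022 (dividing cells) to 0.18 (microglia and blood leukocytes), with 0 called. The part of these cells in the elongation values was not tested.

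Which arrays entered the fit decided whether single clones passed at week 1. Without FL week 7 replicate 3, an array outside the comparison that adds to the shared estimate of spread, 3 clones passed as lower in FL, where 2.35% of all clones passed. They were EEF1A2 clone b, EIF3E and EIF4G2 clone c (limma adjusted p = 0.014, 0.0184 and 0.0498). Without LL week 3 replicate 1, EEF1A2 clone b and EEF1A1 clone a passed (limma adjusted p = 0.0418 and 0.0494), where 1.06% of all clones passed. Without both of these arrays and FL week 1 replicate 4, EEF1A2 clone b (-0.89, limma adjusted p = 0.0154) and EIF3E (-0.53, limma adjusted p = 0.0265) passed, where 1.64% of all clones passed. These 3 arrays had the lowest means of the elongation clones. Leaving them out cannot be told from a choice made on the members' own values, so nothing is read from these calls.

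At the later weeks no member was called between the lines. In limma, 0 of the 62 clones and 0 of all 7917 passed at weeks 3, 5 and 7. At an unadjusted p under 0.05 there were 2 members at week 3, 2 at week 5 and 3 at week 7, where 2.25%, 2.87% and 3.68% of all clones were. The elongation median was 0.12 at week 3, -0.046 at week 5 and -0.10 at week 7, with 2, 6 and 8 of 9 clones below 0, against 50.1%, 52.2% and 50.1% of all clones. Single arrays decided these medians. Without LL week 3 replicate 1 the week 3 median was -0.073, with 7 of 9 clones below 0, without FL week 5 replicate 1 the week 5 median was 0.034, and without FL week 7 replicate 3 the week 7 median was -0.010, with 5 of 9 below 0. The smallest unadjusted p at week 3 was that of SARS1 clone b, for a seryl-tRNA synthetase (0.65 ± 0.27), followed by EIF3F (0.19 ± 0.087) and EIF3L clone d (0.34 ± 0.19). At week 5 they were those of EIF1B, a homologue of the start codon factor EIF1 (1.03 ± 0.44), EEF2KMT clone b (0.32 ± 0.15) and EIF2S1 clone a, the eIF2 alpha subunit (-0.14 ± 0.071). At week 7 they were those of EIF3L clone d (-0.45 ± 0.19), EIF3E (-0.38 ± 0.17) and EPRS clone b (0.66 ± 0.32). Without FL week 7 replicate 3 these 3 were -0.13, -0.16 and 0.048. The limma adjusted p of all 9 of these values was 0.998 or 1.

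Averaged over the 4 ages, 0 of the 62 clones passed between FL and LL, where 0.0505% of all clones did. At an unadjusted p under 0.05 there were 3 members, and 4.91% of all clones. They were EIF3G clone a (0.32 ± 0.13), EEF1A2 clone b (-0.31 ± 0.13) and EIF3E (-0.19 ± 0.087), each with a limma adjusted p of 0.827. In the limma test of whether the line difference changed with age, 0 of the 62 clones and 0 of all 7917 passed. The smallest p values among the members were those of EIF3E (F = 4.65), EIF3F (F = 4.13) and EIF3L clone d (F = 4.04), with unadjusted p = 0.00955, 0.0156 and 0.017 and limma adjusted p of 0.578 for EIF3E and 0.615 for both others. Of all clones, 6.92% had an unadjusted p under 0.05 in this test.

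The remaining age comparisons gave no further calls. Between weeks 5 and 3 and between weeks 7 and 5, 0 of the 62 clones and 0 of all clones passed in limma, with 2 and 0 members, and 1.98% and 1.04% of all clones, at an unadjusted p under 0.05. For these age comparisons the limma adjusted p of every member was 0.996 or above. From week 3 to week 5 the members with the smallest p were EIF4G2 clone b (0.44 ± 0.16), SARS1 clone b (0.48 ± 0.20) and EIF3B (-0.11 ± 0.054). From week 5 to week 7 they were EIF4G2 clone c (-0.37 ± 0.20), EIF3H clone b (-0.22 ± 0.14) and PARS2 (0.29 ± 0.19). Without FL week 7 replicate 3 the EIF4G2 and EIF3H values were -0.17 and -0.10.

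The elongation family was also compared with age within each line. All 9 elongation clones were above 0 for week 7 minus week 1 in FL, with a median of 0.23, where 54.7% of all clones were below 0. In limma 0 of these 9 passed, where 1.09% of all clones did, and 2 had an unadjusted p under 0.05, where 14.6% of all clones did. The smallest, 0.012 for EEF1B2 clone a, had no FL array of week 7 above background, and its Cy3 signal ran the other way (mean log2 of 10.88 at week 7, against 11.18 at week 1). Without 1 array the FL median ranged from 0.14 (without FL week 7 replicate 4, 2 of 9 below 0) to 0.49 (without FL week 7 replicate 3). In LL 4 were above 0 and 5 below, with a median of -0.082, where 53.3% of all clones were below 0, and the median was 0.089 without LL week 1 replicate 4 and 0.045 without LL week 7 replicate 1. The FL value shares its week 1 arrays with the line comparison. The difference between the lines' changes was 1.03 ± 0.57 for EEF1A1 clone a and 0.61 ± 0.37 for EEF1A2 clone b, and it passed for 0 of all 7917 clones (limma adjusted p = 0.949 for both).

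Among initiation factors of the start codon group, 0 of 8 clones passed for week 7 against week 1 (median 0.026, 5 above 0). The 2 with the smallest p were EIF1 clone a, whose product guards start codon choice (0.15 ± 0.096, higher on 7 of 8 arrays), and EIF5 clone b (0.20 ± 0.16). EIF2S1, the subunit of eIF2 that the eIF2 kinases phosphorylate, differed by 0.019 ± 0.050 for clone a and 0.10 ± 0.089 for clone b. EIF2A and EIF1B completed this group.

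Of the 6 clones of eIF2B, 0 passed with age. EIF2B5 clone b differed by 0.55 ± 0.23 (limma adjusted p = 0.187) and EIF2B3 clone a by -0.38 ± 0.23 (limma adjusted p = 0.395). The EIF2B3 clone a value was -0.20 when replicate 3 of LL week 1 was left out and -0.23 when that of FL week 1 was. It was -0.0053 without background subtraction, and -0.78 with array weights, where it passed (limma adjusted p = 0.0311), as did 12.7% of all clones. None of the 4 FL arrays of week 7 had EIF2B5 clone b above background. Its mean log2 Cy3 in FL was 9.39 at week 7, against 11.16 at week 1, which is opposite in direction to its ratio. EIF2B2, EIF2B4 and the other clones of EIF2B3 and EIF2B5 lay between -0.048 and 0.047.

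Of the 15 eIF3 clones, 0 passed with age and 9 were above 0 (median 0.086). EIF3A clone a, the largest subunit, differed by 0.22 ± 0.083 (limma adjusted p = 0.149), and EIF3L clone c by 0.12 ± 0.065. All 4 EIF3L clones were above 0, from 0.034 to 0.12. EIF3B, EIF3E, EIF3F, EIF3G, EIF3H, EIF3I and EIF3J gave the other clones, from -0.17 to 0.27. EIF3F differed by 0.22 ± 0.062 between week 3 and week 1 (limma adjusted p = 0.142), which is the second smallest p of the members in that comparison.

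In the cap-binding group, apart from EIF4A2 clone c, differences for week 7 minus week 1 ran from -0.097 to 0.32, the highest being EIF4G2 clone b (0.32 ± 0.17, limma adjusted p = 0.314). EIF4A3, EIF4E2 and EIF4E3 were among them. The single tested eIF4E-binding protein, EIF4ENIF1 clone a, differed by 0.060 ± 0.061 with age and 0.0027 ± 0.084 between the lines at week 1.

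Of the 13 cytosolic synthetase clones, 1 fell with age, EPRS clone a, and the median was 0.046. AARS1 clone a, for the alanyl-tRNA synthetase, had the next smallest p (-0.17 ± 0.063, lower on 7 of 8 arrays, limma adjusted p = 0.155). Its second clone differed by 0.042 ± 0.11. HARS1, KARS, LARS and SARS1 clones lay between -0.076 and 0.37. GARS clone a had a measured difference of -0.73 ± 0.38, from which nothing is read: it was tested through FL at week 1 alone, where it was high, and was above background on 0 of 4 FL arrays of week 7. Of the mitochondrial synthetases, PARS2 differed by 0.43 ± 0.18 (limma adjusted p = 0.186) and CARS2 by 0.036 ± 0.13.

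Clones of the same gene often gave different patterns. The 28 pairs of tested clones from the same translation gene had a median correlation of 0.156 over the arrays (-0.329 to 0.895), against 0.0615 for 1216 such pairs over all genes. Repeated spots of a single clone had a median of 0.628 over 36 pairs. The closest pairs were those of EEF1A2 (0.895), EIF5 (up to 0.848), EIF4G2 (0.716) and EEF1B2 (0.711), and the lowest those of EIF2B3 (-0.329), EIF3J (-0.299) and EIF2B5 (-0.289). In week 7 minus week 1, the clones of AARS1, EIF3G, EIF5, EIF2B5, EEF2KMT, EIF4A2, HARS1, SARS1 and EPRS had differences on both sides of 0. Those of EEF1A2, EEF1B2, EIF2B3, EIF2S1, EIF3H, EIF3J, EIF3L, EIF4E2, EIF4G2 and LARS lay on the same side.

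Other genes of translation and its control were read from a separate list of 64, of which 33 were on the array and 23 genes with 33 clones were tested. At week 1, 1 clone was called lower in FL, PABPC1 clone d (-0.99 ± 0.20, limma adjusted p = 0.0224), and 0 were higher, where 0.253% of all clones passed. With the array signal as a covariate the call was lost (-0.88, limma adjusted p = 0.121), and it held in 26 of the 32 fits without 1 array. PABPC1 encodes the cytoplasmic poly(A)-binding protein. Its clones b and c differed by -0.39 ± 0.14 and -0.42 ± 0.18 (limma adjusted p = 0.156 and 0.229), and clone a by -0.046 ± 0.10. Between weeks 1 and 7, 3 clones of the list rose and 0 fell, where 1.57% of all clones rose and 1.01% fell. They were PABPC1 clone d (0.57 ± 0.14, limma adjusted p = 0.0289), PABPC1 clone a (0.28 ± 0.073, limma adjusted p = 0.0376) and DOHH clone a (0.32 ± 0.088, limma adjusted p = 0.0458). These calls held in 22, 22 and 11 of the 32 fits without 1 array, and none of the 3 held with only the arrays compared (limma adjusted p = 0.14, 0.105 and 0.145). DOHH completes the modified residue of eIF5A. In FL alone 1 rose, PABPC1 clone d (0.84 ± 0.20, limma adjusted p = 0.0327, where 1.09% of all clones passed). In LL alone 0 of the 33 clones passed, where 0.0758% of all clones did. In LL 4 of the 33 had an unadjusted p under 0.05, where 9.32% of all clones did.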

How the data were processed

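Hypothalamic RNA of FL and LL chickens was measured on 32 two-colour arrays. Per the file headers, the deposited array files hold raw Cy3 and Cy5 intensity, local background and area of each spot, quality letters with a key, and the authors' log2 ratio. No label or header names the scanner or the authors' normalization software. The authors' series table of group means matched the arrays by place (64503 of 64503 values within 0.005) but not by spot name (1775 of 30053), so array file names were used. Ribosomal protein spots were brighter by these names (12.36 against 10.93 log2 units by the table's).

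With limma 3.58.1 in R 4.3.3, intensity per area was corrected (normexp, offset 50) and made into log2(Cy3/Cy5) with global loess (span 0.3, 4 iterations, weight 0 for 960 empty spots). Spots marked A, X, Y or Z, unsatisfactory in the key, were left out (11.4% to 29.0% per array). The letter S, on 29 to 158 spots per array, is not in the key and was kept. Spots of the same clone were averaged. A clone was tested when its raw Cy3 exceeded the 95th percentile of empty spots on at least 3 arrays of 1 group, with 2 or more values in every group. The model had 8 group means and 12 comparisons, and p-values were adjusted (Benjamini-Hochberg) over 7917 clones. Missing values (3.00%) were not imputed. The p-values measure the spread between these birds' arrays.

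The lowest correlation between 2 arrays was -0.379 over tested clones, and the labels' stated dyes set the direction. Named are all members that pass with the other clones of their gene, the 3 smallest p per comparison, the 2 smallest per family for the main age comparison and the week 1 line comparison, and all genes with several clones. Members and lists were chosen with earlier results of these data known. Of the 63 genes, 3 (EEF1D, EIF3G and MARS) have no entry under their gene number in the current gene table and keep the annotation's symbol. The fits were tested on simulated data. Alternatives covered background, normalization, filters, weights, the arrays used and the authors' ratios.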

Additional observations from a re-analysis of the deposited data

Results flagged for a closer look

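In 195 groups of 4 arrays, over 24 translation clones, the mean of the 9 elongation clones and the array signal, 12 values on 6 arrays stood apart from the 3 others of their group by more than a range test at the 95% level allows, and chance gives about 1 in 20. On LL week 3 replicate 1, the array with the lowest signal (2.57), 5 clones stood low. EEF1A1 clone a had -1.86 there (the others -0.11 to 0.037), EEF1A2 clone a -0.557 (0.17 to 0.27), EEF1D -0.754 (0.38 to 0.54), EPRS clone c -0.472 (0.59 to 0.68) and LARS clone a -0.19 (0.28 to 0.36). On FL week 7 replicate 3, EPRS clone b stood high at 2.85 (0.37 to 0.44), while EIF3E at -0.499 (0.33 to 0.42) and EIF4G2 clone c at -1.08 (0.51 to 0.60) stood low.

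The remaining 4 were on other arrays. EPRS clone a had -0.673 on FL week 5 replicate 1 (-0.25 to -0.17), and EIF3E had 0.324 on FL week 3 replicate 2 (0.49 to 0.52). EEF2KMT clone a had 0.696 on LL week 1 replicate 4 (-0.23 to -0.16) and -0.235 on LL week 5 replicate 3 (-0.15 to -0.13). The cause of these values was not tested.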

How the results depend on the processing

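For week 7 against week 1, 2 member clones passed. This count was 1 with median centring, with spread scaled between arrays and with only the arrays compared, where 0.998%, 1.64% and 0.316% of all clones passed. It was 8 with array weights (12.7% of all clones) and 3 with no dim filter (1.44% of all clones). It was also 3 without the 3 arrays that stand apart (6.51% of all clones). EEF1A2 clone b then passed as higher (0.45, limma adjusted p = 0.0463), against 0.34 with all arrays (limma adjusted p = 0.325). These arrays were FL week 1 replicate 4, LL week 3 replicate 1 and FL week 7 replicate 3, those with the lowest elongation means. Leaving them out cannot be told from a choice made on the members' own values. Nothing is read from any call made without them. The count was 0 with the stricter dim filter and with the authors' log2 ratios (2.93% and 6.3% of all clones). Neither of these left EPRS clone a or EIF4A2 clone c in the test. For week 3 against week 1 (1 clone) it was 0 with the authors' ratios, the stricter filter and only the arrays compared (0.203%, 0.14% and 0.0253% of all clones). With array weights it was 2 (2.36% of all clones). For week 7 against week 1 in FL (1 clone) it was 0 under the first 3 of these settings (1.5%, 1.2% and 0.0126% of all clones). It was 2 without background subtraction (2.35% of all clones), 3 with array weights (5.9%) and 2 without the 3 arrays that stand apart (4.24%). In LL (0 clones) it was 2 with array weights (1.44% of all clones). The line count at week 1 (0 clones) was 2 without the 3 arrays that stand apart (1.64% of all clones). Leaving out 1 array at a time gave 0 to 3 calls for the line at week 1, 1 to 2 for week 7 against week 1, 0 to 2 for week 3 against week 1 and 1 to 3 in FL, and moved no other count. The counts of 3 came without FL week 7 replicate 3, where 2.35% (line at week 1) and 5.22% (FL) of all clones passed. The count of 2 for week 3 came without FL week 1 replicate 1, where 0.976% passed. EPRS clone a kept its fall between weeks 1 and 7 in all 12 alternatives that tested it (-0.58 to -0.50). Values near 0 changed sign: EIF4ENIF1 clone a at week 1 (0.0027) was -0.025 with the signal covariate, -0.010 with array weights, -0.036 with median centring, -0.020 without the 3 arrays and -0.058 to 0.064 without single arrays. Its age difference was -0.0048 with array weights. CARS2 with age (0.036) was -0.071 with array weights, -0.0059 with the authors' ratios, -0.012 with scaled spread and -0.050 to 0.11 without single arrays. The labels give replicate numbers no meaning across groups. Same-numbered arrays of different groups correlated at a median of 0.0848 (52 of 112 pairs over 0.1), against -0.028 for different numbers (85 of 336), 16 of 32 arrays were closest to their own number, and replicate 1 had a lower signal than replicate 4 in 8 of 8 groups, a hint from the data that numbers share something. No label states a pairing, so the main fit does not use the numbers as pairs. What same-numbered arrays may share was not tested. With the replicate block no member count changed (2 for week 7 against week 1, 0 for the line at week 1), and over all clones 271 passed in the first (204 without the block) and 36 in the second (20 without). Dim signal or missing values kept the 55 untested clones out, and a median standard error of 0.165 limits a line difference at a single week.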
